A study of Homo sapiens and Homo sapiens
Mus musculus with 19 samples.

Results

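This report covers 10 human genes for matricellular proteins and collagen processing, SPARC, SPARCL1, PCOLCE, MATN2, SRPX, FN1, TNC, THBS1, THBS2 and POSTN, out of 57820 genes in the human count table. They were found by their gene symbols, and they had been chosen from results on Control and sgTWIST1 samples of this same series, so their Control to sgTWIST1 differences are given as a description, without p values. SK-N-Be2c is an established human neuroblastoma (NB) line that carries MYCN amplification, and RNA was sequenced from 3 Control clones, 3 sgTWIST1 clones, 4 Control tumors and 4 sgTWIST1 tumors. Control is labelled as wild type and sgTWIST1 as the line in which TWIST1 had been knocked out by CRISPR/Cas9, so all 4 groups share the MYCN amplification and come from 1 cell line. The tumors (ortho_1) grew from these cells in the adrenal gland of athymic Swiss nude mice, whose T cells do not mature, up to 1000 cubic millimetres, so each tumor holds human tumor cells and murine stroma. The deposited values were separated by species, and the murine orthologues could therefore be read in the same 8 tumors.

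Matricellular proteins are secreted into the extracellular matrix (ECM), where they act on cell adhesion and signaling more than as scaffolding. SPARC, SPARCL1, tenascin-C (TNC), the thrombospondins (THBS1 and THBS2) and periostin (POSTN) are classical members, whereas fibronectin (FN1) and matrilin-2 (MATN2) build or bridge ECM fibrils. PCOLCE enhances the cleavage of procollagen by BMP1-type proteinases, the step that lets fibrillar collagens assemble. In most solid tumors such proteins come largely from fibroblasts and other stromal cells, and TWIST1 is a basic helix-loop-helix factor that binds E-boxes, the DNA letters CANNTG.

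Human depth was 21695714 to 45789746 counts per clone and 21426528 to 49991029 per tumor, and murine depth was 577518 to 7248311 counts per tumor. Control tumor 2 had the lowest murine share of all counts (2.44%, against 3.77 to 13.97% in the other 7 tumors), and values that rest on it are given with and without it. TWIST1 itself was measured at 49.3 to 53.6 CPM (counts scaled to a library of 1000000) in Control clones and 19.4 to 27.8 CPM in sgTWIST1 clones, and at 54.5 to 83.8 and 19.3 to 38.2 CPM in the tumors, so the transcript was lower but present after editing. Of the human sympathetic neuroblast markers, 9 that include the transcription factor HAND2 and the noradrenaline enzyme DBH summed to 3019 to 5581 CPM in Control clones, 1912 to 3028 in sgTWIST1 clones, 2592 to 3699 in Control tumors and 1790 to 2423 in sgTWIST1 tumors, lower in sgTWIST1 tumors without overlap. Human Schwann cell markers summed to 7.0 to 13.4 CPM in Control clones, 9.52 to 19.0 in sgTWIST1 clones, 5.46 to 22.8 in Control tumors and 17.8 to 35.4 in sgTWIST1 tumors, and none of the 6 stayed at 3 counts or fewer in any group. Human mesenchymal markers summed to 36.8 to 80.3 CPM in Control clones, 253 to 424 in sgTWIST1 clones, 14.7 to 37.4 in Control tumors and 46.0 to 171 in sgTWIST1 tumors, mostly LUM and DCN. COL1A1 and COL3A1 of the same list went the other way in clones, with 0.590 to 1.11 and 0.323 to 0.407 CPM in sgTWIST1 beside 1.64 to 4.69 and 1.11 to 2.59 CPM in Control. The mesenchymal sums, carried by LUM and DCN, were higher and the neuroblast sums in tumors lower in sgTWIST1 than in Control, and their part in the results below was not tested.

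The 10 genes lie on 10 chromosomes. In GRCh37 PCOLCE is at chr7:100199986-100205798 on the plus strand, SPARC at chr5:151040657-151066536, SPARCL1 at chr4:88394487-88452213, THBS2 at chr6:169615875-169654145, TNC at chr9:117781854-117880486 and SRPX at chrX:38008589-38080177, the last 5 on the minus strand. FN1 (chr2:216225163-216300796) and POSTN (chr13:38136720-38172981) are on the minus strand, and THBS1 (chr15:39873280-39891667) on the plus strand. SPARC, PCOLCE, TNC, THBS1 and THBS2 overlap long non-coding genes on the other strand, MATN2 overlaps RPL30, SRPX overlaps ENSG00000250349 and THBS1 overlaps FSIP1. The sources used here do not say whether strand was used in counting, so reads of such partners cannot be told apart from those of the member. The 20 tested genes nearest to each of the 10 had a median log2(FC) between -0.41 and 0.41 in cells and between -0.58 and 0.50 in tumors. Around SRPX 9 of the 20 were DE in cells and 6 in tumors, beside 14.5% and 14.3% of all tested genes. Around the other members 1 to 3 were DE in cells and 1 to 5 in tumors. Whether position plays a part was not tested.

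The promoter windows that RefSeq places at these genes (GRCh38.p14, 250 bases before to 50 after the gene start) were searched for E-boxes, and 9 of the 10 genes had an entry. CANNTG, which reads the same on both strands in this pattern, was found at 6 of the 9, against 68.7% of all 35116 promoters of this length. CATCTG and its reverse complement CAGATG, a subset of CANNTG, were found at PCOLCE and SPARC, against 14.7% of all promoters. The 4 windows below are those of the 2 genes higher in Control clones and tumors alike and of the 2 genes with the largest excess in sgTWIST1 clones; capitals mark CANNTG, and the SRPX window holds none.
PCOLCE, chr7:100602113-100602412, plus strand: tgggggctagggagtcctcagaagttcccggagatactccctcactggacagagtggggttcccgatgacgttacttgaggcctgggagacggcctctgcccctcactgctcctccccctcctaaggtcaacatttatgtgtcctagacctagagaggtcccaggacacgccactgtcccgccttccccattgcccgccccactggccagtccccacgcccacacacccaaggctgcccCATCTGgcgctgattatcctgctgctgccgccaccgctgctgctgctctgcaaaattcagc
SPARC, chr5:151686866-151687165, minus strand: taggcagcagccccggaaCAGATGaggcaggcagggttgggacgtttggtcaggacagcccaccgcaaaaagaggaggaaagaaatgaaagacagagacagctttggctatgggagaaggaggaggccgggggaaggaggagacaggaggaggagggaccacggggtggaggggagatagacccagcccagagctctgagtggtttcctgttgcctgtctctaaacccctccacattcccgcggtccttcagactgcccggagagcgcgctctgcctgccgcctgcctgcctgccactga
SPARCL1, chr4:87529327-87529626, minus strand: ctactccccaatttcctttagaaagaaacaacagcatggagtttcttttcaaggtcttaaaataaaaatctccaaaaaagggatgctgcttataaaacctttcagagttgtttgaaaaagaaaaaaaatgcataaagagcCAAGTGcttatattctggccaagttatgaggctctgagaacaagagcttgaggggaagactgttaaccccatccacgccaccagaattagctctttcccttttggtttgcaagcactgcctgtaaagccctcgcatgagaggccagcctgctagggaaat
SRPX, chrX:38220822-38221121, minus strand: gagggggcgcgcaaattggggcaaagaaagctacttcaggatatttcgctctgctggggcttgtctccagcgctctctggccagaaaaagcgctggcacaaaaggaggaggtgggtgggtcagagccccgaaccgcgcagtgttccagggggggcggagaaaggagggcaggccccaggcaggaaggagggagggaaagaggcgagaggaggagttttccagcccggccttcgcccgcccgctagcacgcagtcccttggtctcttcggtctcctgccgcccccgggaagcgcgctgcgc
The CATCTG of PCOLCE starts 11 bases before the gene start (-11), the CAGATG of SPARC at -232 and the CAAGTG of SPARCL1 at -110. These matches describe the letters of the windows only.

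In both settings PCOLCE and SPARC were higher in Control samples, while SPARCL1, MATN2, SRPX and TNC were higher in sgTWIST1 samples. THBS2 was higher in Control clones but not in Control tumors. FN1, THBS1 and POSTN stayed under the expression threshold. With bulk RNA, fewer cells that make a transcript and less transcript per cell cannot be told apart. Of the 10 genes, 7 passed the expression threshold (a log2 RPKM above 1 in at least 1 sample) and FN1, THBS1 and POSTN did not, although FN1 reached 2.85 RPKM in an sgTWIST1 tumor on the length of its canonical transcript. THBS2 passed only through Control clones, SRPX only through sgTWIST1 clones, and SPARCL1, MATN2 and TNC through sgTWIST1 samples, so a difference of these genes was built into the count of tested members. A gene was called differentially expressed (DE) at an adjusted p value below 0.05 with a log2(FC), Control relative to sgTWIST1, of at least 1 in absolute value. In cells all 7 tested members were DE, 3 higher (up) and 4 lower (down) in Control than in sgTWIST1, beside 14.5% of all tested genes (8.28% up, 6.25% down). In tumors 6 of the 7 were DE, 2 up and 4 down, beside 14.3% of all genes (6.81% up, 7.47% down). Since these contrasts had chosen the genes, nothing is read from the counts. Their median log2(FC) was -3.85 in cells and -3.20 in tumors, beside 0.00026 and 0.0044 over all tested genes.

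**Figure D1:**
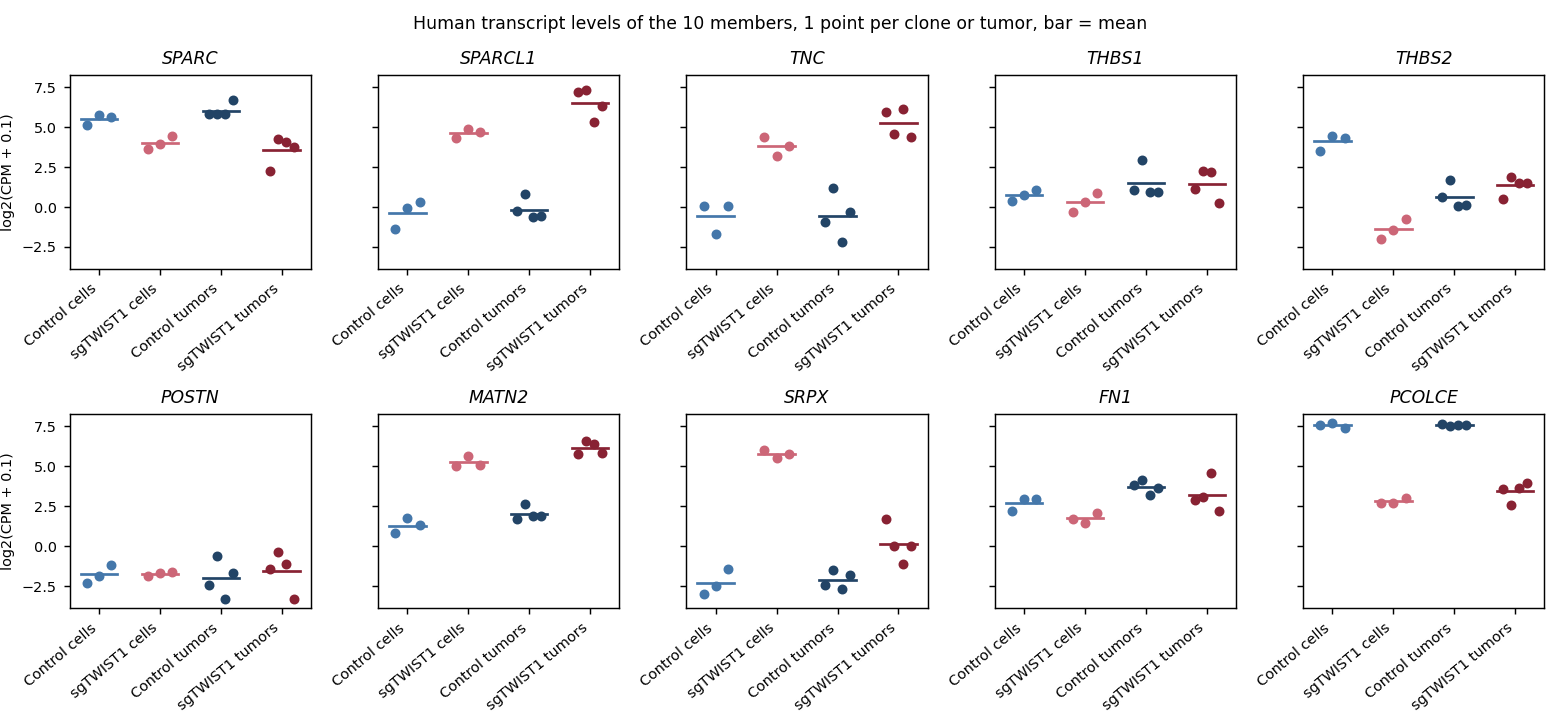
Human level of each of the 10 genes as log2(CPM + 0.1) in 3 Control clones, 3 sgTWIST1 clones, 4 Control tumors and 4 sgTWIST1 tumors, with 1 point per sample and a bar at the mean of the plotted values. PCOLCE and SPARC sit higher in Control groups, SPARCL1, TNC, MATN2 and SRPX in sgTWIST1 groups, and THBS2 is spread over the 4 groups with its top in Control cells (11.4 to 22.1 CPM) and its bottom in sgTWIST1 cells (0.153 to 0.507 CPM).

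Group means were compared per length, with the exon length of the canonical transcript. PCOLCE was the most abundant member in Control clones and tumors, SRPX in sgTWIST1 clones and SPARCL1 in sgTWIST1 tumors. In sgTWIST1 tumor 3 MATN2 (20.1 RPKM) stood above SPARCL1 (14.3 RPKM). In Control clones the order was PCOLCE (125 ± 16 RPKM, SD, n = 3), SPARC (13.4 ± 3.1) and THBS2 (3.12 ± 0.99), whose ranges did not overlap, and the other 7 stayed below 1 RPKM. In sgTWIST1 clones SRPX led with 29.7 ± 5.2 RPKM, followed by MATN2 (9.42 ± 2.4) and SPARCL1 (8.90 ± 1.8), whose ranges overlapped, and by SPARC (4.77 ± 1.5) and PCOLCE (4.60 ± 0.62), whose ranges overlapped too. In Control tumors PCOLCE (126 ± 3.0 RPKM, n = 4) and SPARC (19.7 ± 6.5) led, and in sgTWIST1 tumors SPARCL1 (38.2 ± 21) and MATN2 (17.7 ± 4.9), whose ranges overlapped.

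PCOLCE, the procollagen C-proteinase enhancer, had the most even levels within Control groups. It was measured at 190, 213 and 166 CPM in Control clones 1 to 3 and at 6.54, 6.33 and 8.06 CPM in sgTWIST1 clones. In tumors the values were 197, 187, 193 and 190 CPM for Control and 11.8, 5.86, 12.6 and 15.7 CPM for sgTWIST1. Every Control sample was more than 10 times above every sgTWIST1 sample. The log2(FC) was 4.90 (SE 0.18) in cells and 4.07 (SE 0.30) in tumors.

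SPARC, a collagen-binding glycoprotein that takes part in ECM assembly, followed the same direction with a smaller distance. Control clones had 34.3, 54.6 and 49.8 CPM, and sgTWIST1 clones 12.2, 15.1 and 22.0 CPM. Among tumors the levels were 56.3, 56.6, 57.2 and 101 CPM with Control cells and 4.72, 18.9, 16.7 and 13.2 CPM with sgTWIST1 cells. The groups did not overlap, although Control tumor 4 stood above the other 3 Control tumors. The log2(FC) was 1.63 (SE 0.27) in cells and 2.39 (SE 0.38) in tumors. SPARCL1, its closest relative, which is known for anti-adhesive activity, went the other way. Its levels were 0.290, 0.856 and 1.15 CPM in Control clones against 19.6, 29.3 and 25.3 CPM in sgTWIST1 clones. Tumors had 0.735, 1.65, 0.540 and 0.586 CPM for Control against 145, 162, 39.7 and 78.4 CPM for sgTWIST1. The sgTWIST1 tumors differed among themselves by about as much as 4 times, yet the lowest was far above the highest Control tumor. The log2(FC) was -4.91 (SE 0.45) in cells and -6.98 (SE 0.52) in tumors.

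MATN2, a filament-forming adaptor of the ECM that is known in peripheral nerve, was measured at 1.66, 3.32 and 2.38 CPM in Control clones and at 32.4, 50.3 and 34.1 CPM in sgTWIST1 clones. In tumors it reached 3.11, 6.15, 3.68 and 3.56 CPM in Control and 55.7, 96.7, 83.1 and 57.0 CPM in sgTWIST1. The 2 genotypes were widely apart in both settings, and Control tumor 2 was the highest of its group. The log2(FC) was -3.85 (SE 0.33) in cells and -4.12 (SE 0.24) in tumors. TNC, an adhesion-modulating hexameric glycoprotein, had 0.924, 0.207 and 0.943 CPM in Control clones and 20.7, 8.89 and 14.3 CPM in sgTWIST1 clones. In tumors it had 0.424, 2.16, 0.120 and 0.703 CPM in Control and 62.1, 23.8, 71.1 and 20.5 CPM in sgTWIST1. Control tumor 2 was again the highest Control tumor, and no sgTWIST1 sample came near it. The log2(FC) was -4.31 (SE 0.57) in cells and -5.83 (SE 0.67) in tumors, or -6.66 without Control tumor 2.

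SRPX, a secreted protein with sushi repeats, showed the widest distance between genotypes in cells and a much smaller one in tumors. The Control clones held 1, 3 and 8 counts (0.0264, 0.0778 and 0.279 CPM), beside 64.4, 45.4 and 54.8 CPM in sgTWIST1 clones. Control tumors held 3, 6, 3 and 8 counts, and sgTWIST1 tumors 148, 25, 8 and 40 counts (3.13, 0.900, 0.373 and 0.931 CPM). The genotypes overlapped in tumors by count, since sgTWIST1 tumor 3 and Control tumor 4 both held 8 counts, but not by CPM. The fitted log2(FC) was -8.72 (SE 0.46) in cells and -3.20 (SE 0.77) in tumors, and with so few Control counts it depends on the prior count. It was -9.81 in cells without Control clone 3 and -2.41 in tumors without sgTWIST1 tumor 1.

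THBS2, an anti-angiogenic thrombospondin that binds CD36 and CD47, had 11.4, 22.1 and 19.9 CPM in Control clones and 0.153, 0.264 and 0.507 CPM in sgTWIST1 clones. In tumors it had 1.41, 3.16, 0.940 and 1.01 CPM in Control and 1.33, 3.64, 2.71 and 2.68 CPM in sgTWIST1. The clones were clearly separated, whereas the tumors of the 2 genotypes overlapped. The log2(FC) was 6.10 (SE 0.48) in cells and -0.69 (SE 0.46) in tumors, and it was -1.14 and passed the DE threshold without Control tumor 2.

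**Figure D2:**
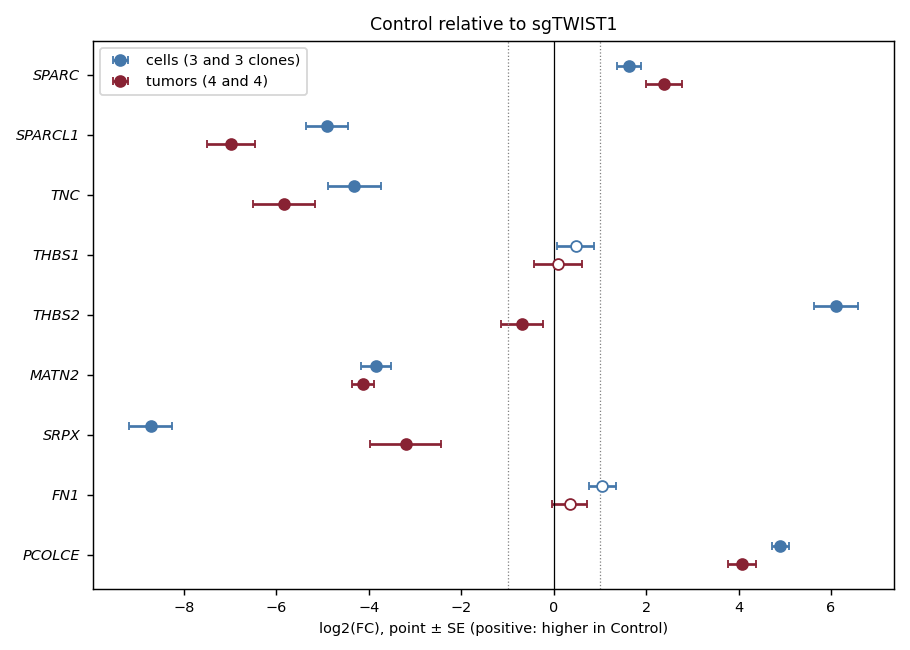
log2(FC) of Control relative to sgTWIST1, with SE, in cells (blue) and tumors (red) for the 9 genes that could be fitted in both. Filled points are genes above the expression threshold and open points (FN1 and THBS1) come from the fit with a looser filter; dotted lines mark the fold cutoff of 1. THBS2 lies at 6.10 in cells and -0.69 in tumors, and SRPX at -8.72 and -3.20.

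The 3 members under the expression threshold were fitted with the looser filterByExpr rule. FN1, the fibronectin that integrins bind, had 4.62, 7.75 and 7.69 CPM in Control clones and 3.23, 2.68 and 4.15 CPM in sgTWIST1 clones, a log2(FC) of 1.05 (SE 0.29). In tumors its range was 9.18 to 17.9 CPM in Control and 4.45 to 23.9 CPM in sgTWIST1, so the groups overlapped, and the log2(FC) was 0.34 (SE 0.38). THBS1, which activates latent TGF-beta, had 1.20 to 1.96 CPM in Control clones and 0.699 to 1.75 CPM in sgTWIST1 clones, with log2(FC) of 0.47 (SE 0.39) in cells and 0.09 (SE 0.53) in tumors. Control tumor 2 had 7.71 CPM of THBS1, while the other 3 Control tumors had 1.83 to 2.02 CPM. POSTN, an integrin ligand made by activated fibroblasts, had 0 to 19 human counts per sample, too few to compare groups at this depth.

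The comparison of tumors with the cells they came from shows how these genes differed between cells and tumors. Cells and tumors had been prepared and sequenced separately, so library preparation cannot be told apart from growth in the adrenal gland. This comparison differs from the contrasts that had chosen the genes but uses the same samples. It is therefore not independent of the choice, and nothing is read from the counts. The same DE thresholds were used within each genotype. THBS2 and SRPX had passed the expression threshold in 1 group only, and SPARCL1, MATN2 and TNC only through sgTWIST1 samples. All members are given here as values without p. In Control, THBS2 was 3.46 lower on the log2 scale in tumors than in cells (-3.46, SE 0.45). It was the only 1 of the 7 counted past the thresholds, beside 11.8% of all genes (5.67% higher and 6.13% lower in tumors). As it had entered the test only through Control clones, a lower value in Control tumors was built in. MATN2 was 0.78 higher (SE 0.29), under the fold cutoff, and 1.14 higher, past it, without Control clone 2. PCOLCE differed by 0.08 (SE 0.26), SPARCL1 by 0.18 (SE 0.59), TNC by 0.20 (SE 0.76), SRPX by 0.28 (SE 0.98) and SPARC by 0.62 (SE 0.37), none of which passed the test. The Control samples held 1 to 8 counts of SRPX, and a difference of 1 log2 unit was not detectable for it at this SE.

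In sgTWIST1, 5 of the 7 were counted past the thresholds, 4 higher and 1 lower in tumors, beside 12.7% of all genes (8.01% higher, 4.66% lower). The count holds THBS2 and, as the 1 lower, SRPX. As SRPX had entered the test only through sgTWIST1 clones, its direction was built in. The values were 2.26 (SE 0.43) for SPARCL1, 3.34 (SE 0.55) for THBS2 and -5.14 (SE 0.52) for SRPX, or -5.94 for SRPX without sgTWIST1 tumor 1. MATN2 was 1.06 higher (SE 0.26) and TNC 1.73 higher (SE 0.59) in tumors. TNC had passed the expression threshold in 4 sgTWIST1 tumors but in only 1 sgTWIST1 clone. The places of MATN2 and TNC in the count were less stable. MATN2 was at 0.95, 0.97 and 0.92, under the fold cutoff, without sgTWIST1 clone 1, sgTWIST1 clone 3 or sgTWIST1 tumor 2. TNC did not pass at 1.47, 1.69, 1.54 and 1.42 without sgTWIST1 clone 2, sgTWIST1 clone 3, sgTWIST1 tumor 1 or sgTWIST1 tumor 3. PCOLCE was 0.93 higher (SE 0.28), under the fold cutoff, and passed it at 1.02 and 1.15 without sgTWIST1 clone 3 or sgTWIST1 tumor 2. SPARC differed by -0.12 (SE 0.38) and was not called. With the looser filter FN1 was 1.61 higher in sgTWIST1 tumors (SE 0.39), past the thresholds, and 0.82 higher in Control tumors (SE 0.37), under the fold cutoff. The murine Fn1 counts of these tumors, which far exceeded the human ones, are given below. Under that filter MATN2 (0.86) and TNC (1.52) were not called. The median of the 7 was 0.20 in Control and 1.06 in sgTWIST1, beside -0.0053 and 0.015 over all genes.

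**Figure D3:**
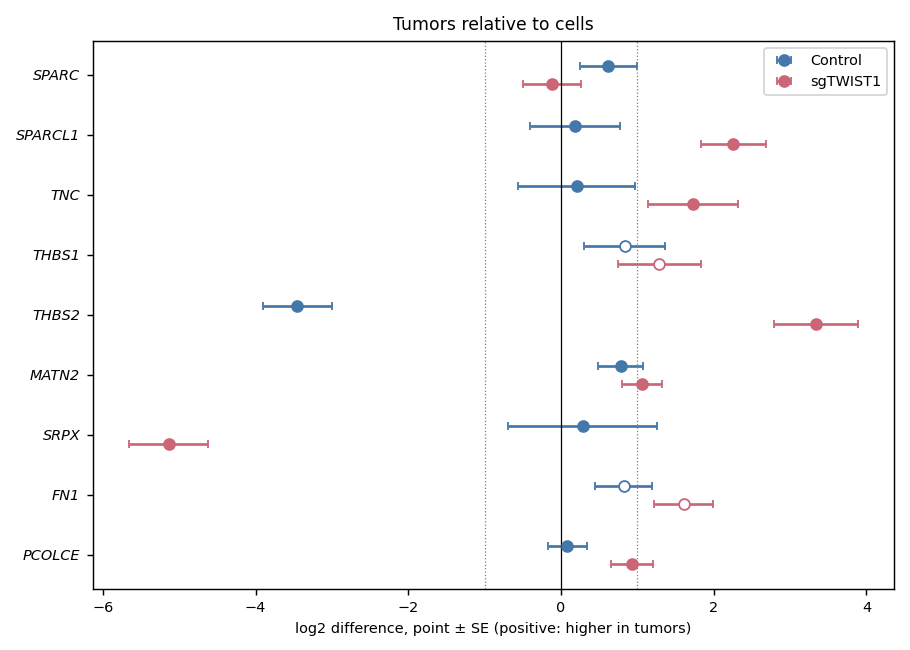
log2 difference between tumors and cells, with SE, in Control (blue) and sgTWIST1 (red) for 9 genes, with open points for the 2 genes from the looser filter and dotted lines at the fold cutoff of 1. THBS2 lies at -3.46 in Control and 3.34 in sgTWIST1, and SRPX at -5.14 in sgTWIST1 and 0.28 in Control.

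THBS2 and SRPX were the 2 members counted past the thresholds for a difference of the log2(FC) between tumors and cells, beside 8.05% of all genes (2.72% with a higher and 5.34% with a lower log2(FC) in tumors). As this difference is built from the contrasts that had chosen the genes, it is given as a value only, and nothing is read from the count. It was -6.79 (SE 0.71) for THBS2 and 5.42 (SE 1.10) for SRPX, or 6.52 for SRPX without Control clone 3 and 6.23 without sgTWIST1 tumor 1. It was -2.08 (SE 0.72) for SPARCL1, or -2.50, -2.42 and -2.35 without Control clone 1, Control tumor 2 or sgTWIST1 tumor 3, and -0.85 (SE 0.38) for PCOLCE, or -1.06 without sgTWIST1 tumor 2. The remaining values were 0.74 (SE 0.53) for SPARC, -0.28 (SE 0.38) for MATN2 and -1.52 (SE 0.95) for TNC, the last at -2.36 without Control tumor 2.

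Reads that matched both species had been kept among the human counts, so the murine counts of the same genes are given beside the tumor values. Human THBS2 counts in Control tumors were 50, 73, 47 and 43, where the murine Thbs2 counts were 958, 36, 8465 and 4928. In sgTWIST1 tumors they were 63, 101, 58 and 115, beside 513, 159, 1545 and 2049 murine counts. Control tumor 2 had the fewest murine Thbs2 counts (36) and 73 human counts, and these counts are not scaled to depth. Human SRPX counts of 148, 25, 8 and 40 in sgTWIST1 tumors stood beside 26, 7, 81 and 111 murine Srpx counts. For FN1 the human counts were 499, 414, 459 and 533 in Control tumors, beside 10705, 1616, 72221 and 50733 murine Fn1 counts. In sgTWIST1 tumors they were 341, 232, 513 and 191, beside 10476, 5470, 23424 and 26769 murine counts. How many human counts came from shared reads was not tested.

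In Control tumors most transcripts of these genes were murine, with PCOLCE as an exception in all 4 tumors and MATN2 in 2 of them. In Control tumor 2 alone SPARC (60.1% human), THBS2 (67.0%) and SRPX (75%, from 6 human and 2 murine counts) were exceptions too. The human share of human and murine counts was 90.9 ± 7.9% for PCOLCE, 61.8 ± 29% for MATN2, 23.1 ± 25% for SPARC, 2.67 ± 4.4% for SPARCL1 and 7.32 ± 13% for TNC (SD, n = 4). Without Control tumor 2 these were 88.1, 49.8, 10.8, 0.468 and 0.748% (n = 3). In sgTWIST1 tumors it was 53.7 ± 17% for PCOLCE, 96.8 ± 1.6% for MATN2, 4.77 ± 2.8% for SPARC, 68.2 ± 28% for SPARCL1 and 41.7 ± 19% for TNC. These shares use the human counts that had chosen the genes and carry no test. FN1, THBS1 and POSTN were mainly murine in all 8 tumors, with human shares of at most 20.4%, 22.2% and 7.93%, all reached in Control tumor 2. Without that tumor the highest were 4.45%, 9.21% and 2.69%. The murine share of all counts was 8.97 ± 4.5% in Control and 7.46 ± 4.6% in sgTWIST1 tumors (2-sided exact permutation test, p = 0.629, n = 4 and 4).

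**Figure D4:**
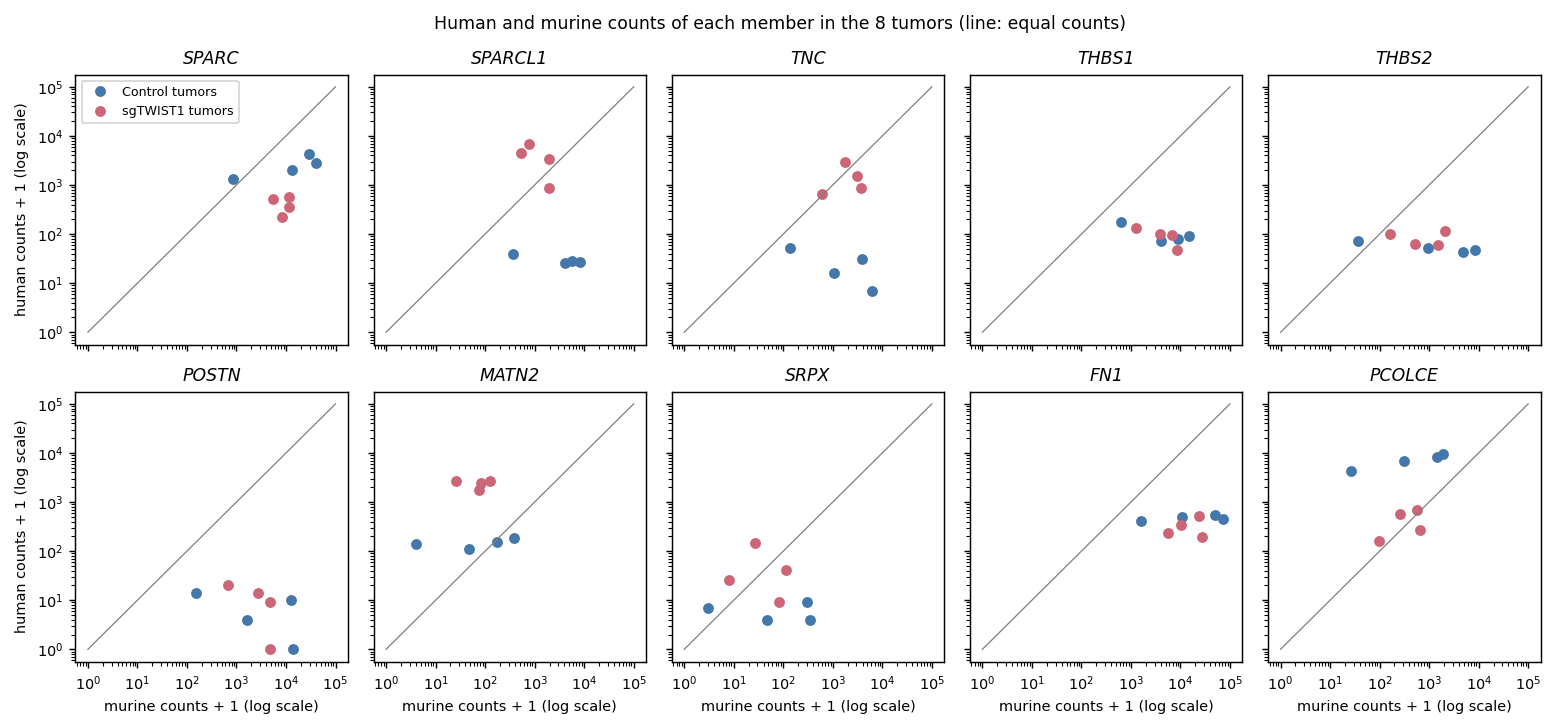
Human counts against murine counts of each gene in 4 Control (blue) and 4 sgTWIST1 (red) tumors, both plus 1 on log scales, with a line at equal counts. SPARCL1 and MATN2 counts of sgTWIST1 tumors are mostly on the human side of the line, and FN1, THBS1 and POSTN lie on the murine side in all 8 tumors.

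The murine orthologues address the stroma, which carries no TWIST1 editing, and were not used to choose the genes. None of the 10 was DE between Control and sgTWIST1 tumors with edgeR at the murine cutoff of 0.5, and neither was any other murine gene (0% of 12758), while at an unadjusted p below 0.05 there was 1 orthologue and 657 genes in all (5.15%). DESeq2 called 54 murine genes and 0 orthologues, and edgeR without the filter on low counts called 497 genes and 1 orthologue, Sparcl1 (1.43, adjusted p = 0.0215). Sparcl1 was the one with a low unadjusted p. Its levels were 2165, 644, 775 and 765 CPM in Control and 406, 398, 565 and 568 CPM in sgTWIST1 tumors, so the groups did not overlap, and murine Sparcl1 was higher in Control, opposite to the human gene. Its log2(FC) was 1.37 (SE 0.57, adjusted p = 0.949), or 0.45 without Control tumor 1, and the 2-sided exact permutation test of its CPM gave p = 0.0286, the smallest that 4 against 4 allows, and 0.286 after Benjamini-Hochberg adjustment over 10 orthologues. Murine Tnc had 283, 234, 840 and 725 CPM in Control and 971, 445, 872 and 1077 CPM in sgTWIST1 tumors, with -0.82 as its log2(FC) (SE 0.40, adjusted p = 0.993). The other 8 had log2(FC) from -0.38 (Thbs1) to 0.48 (Srpx). Murine fibroblast markers (Col1a1, Col1a2, Col3a1, Dcn, Lum and Pdgfra) summed to 5444 to 46183 CPM in Control and 5946 to 33671 CPM in sgTWIST1 tumors, which overlapped. Adrenal cortex markers of the host summed to 5.19 to 21.3 CPM in Control and 6.04 to 1588 CPM in sgTWIST1 tumors, pericyte and smooth muscle markers to 1517 to 3562 and 3097 to 4665, endothelial markers to 1145 to 2259 and 1596 to 3994, macrophage markers to 301 to 1451 and 479 to 952, and Schwann cell markers to 1.83 to 9.38 and 1.15 to 79.9 (1 of 3 Schwann markers at 3 counts or fewer in every tumor of each group), and the part of these cells in the murine values was not tested.

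Other genes of the same families and of collagen processing were read from 3 lists. As with the members, a gene could pass the expression threshold only through the group in which it was high. This builds a difference into the tested genes. The lists were also chosen with earlier results of these data known, so nothing is read from their counts. Of 29 relatives of the members, 7 passed the expression threshold, and 5 of them were DE in cells (3 up, 2 down) and 5 in tumors (3 up, 2 down), 71.4% of the 7 in each, beside 14.5% and 14.3% of all genes. SPOCK3, a proteoglycan of the SPARC family, had the highest log2(FC) in both, 8.78 (SE 0.20) in cells and 4.28 (SE 0.37) in tumors. The lowest belonged to FSTL1, another SPARC relative, in cells (-6.61, SE 0.39) and to SPOCK1 in tumors (-4.99, SE 0.42). FSTL1 had 630 ± 151 CPM in sgTWIST1 clones and 33.9 ± 17.8 CPM in sgTWIST1 tumors, beside 5.96 ± 2.25 and 5.83 ± 2.25 CPM in Control (SD, n = 3 and 4). The median log2(FC) of the list was 0.77 in cells and 0.54 in tumors.

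Of 30 genes for collagen processing, folding and crosslinking, 21 were tested, of which 4 were DE in cells (2 up, 2 down) and 8 in tumors (3 up, 5 down), or 19.0% and 38.1% beside 14.5% and 14.3% of all genes. LOXL3, a lysyl oxidase that crosslinks collagen, was highest in Control with log2(FC) of 5.13 (SE 0.41) in cells and 4.28 (SE 0.36) in tumors, the direction of PCOLCE. The lowest were LOXL1 in cells (-2.06, SE 0.37) and ADAMTS2, the procollagen N-proteinase, in tumors (-1.87, SE 0.27). The medians were 0.09 and 0.05, close to all genes. Of 17 receptors for these proteins 12 were tested, of which 5 were DE in cells (3 up, 2 down) and 6 in tumors (3 up, 3 down), or 41.7% and 50% beside the same 14.5% and 14.3%. The heparan sulfate proteoglycan SDC2 was highest, with 2.69 (SE 0.25) in cells and 3.17 (SE 0.27) in tumors, and the laminin-binding integrin subunit ITGA3 lowest, with -2.73 (SE 0.33) and -1.86 (SE 0.43). The medians were 0.45 and 0.08.

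Each of the 7 tested members was also set beside all tested protein-coding genes across the 14 samples, and the 2 of highest Pearson r are given as a description, since the 14 samples share 4 groups that set most of r. They were AGPAT2 (0.945) and SHROOM3 (0.936) for SPARC, RAD17 (0.987) and SEZ6L (0.987) for SPARCL1, and DYRK4 (0.985) and FAM69B (0.984) for PCOLCE. For MATN2 they were PODXL (0.988) and SYT13 (0.987), for TNC ZNF99 (0.975) and TMEM117 (0.974), for SRPX TMTC1 (0.963) and LRRTM1 (0.953), and for THBS2 CNKSR3 (0.955) and RAC2 (0.948). No member was among the 2 genes most like another member.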

How the data were processed

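RNA libraries depleted of ribosomal RNA had been sequenced as single reads of 100 bases. The authors aligned reads with STAR 2.5.2b (hg19 and mm10, per the submitters' processing notes), split them by species with shared reads removed from the murine part, and deposited the expected counts per gene from RSEM 1.3.0. Here the expected counts were rounded and the 2 batches of a clone were summed, except for sgTWIST1 clone 3, which had 1 batch. All 19 human and 8 murine columns were used. Human genes kept were the 10889 protein-coding ones (GENCODE release 44, GRCh37) whose log2 RPKM exceeded 1 in any column, and 12758 murine genes by filterByExpr. The quasi-likelihood test of edgeR 4.0.16 (R 4.3.3, TMM, Benjamini-Hochberg adjustment over all tested genes) compared Control with sgTWIST1 in cells, in tumors and in the stroma separately, and 1 fit of all 4 groups gave tumors against cells and the difference of the log2(FC). The numbers of clones and tumors were not used to pair samples in these fits. Same-numbered Control and sgTWIST1 clones correlated at 0.32, 0.28 and 0.0999, above the mean of -0.12 for clones of other numbers. A shared structure of same-numbered clones can therefore not be excluded, and fits with the number as a replicate block are given below. In the labels nothing beyond clone and xenograft numbers says how independent samples were, so p values measure the spread between these samples.

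The members, gene lists and tests were chosen with earlier results of these data known. The text names the 10 members, TWIST1, the genes of highest and lowest log2(FC) among the DE genes of each list, and the 2 genes most like each member. FSTL1 levels were added after their values were seen. DESeq2 1.42.0, other filters, a replicate block, batch 1 alone and each replicate left out were alternatives, and a filter on canonical transcript length and leaving out the tumor of lowest human depth in each group were added after the data had been seen. A floor of 3 counts equals 0.0600 to 0.140 CPM and covers counting error only. RSEM counts were not stated to use strand. Protein sequences and the promoter of MATN2 were not used here.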

Additional observations from a re-analysis of the deposited data

Results flagged for a closer look

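Of 40 groups of 4 tumors, 5 had a sample far from the other 3 by Dixon's criterion, where chance gives about 1 in 20. SPARC was at 101 CPM in Control tumor 4, and THBS1 at 7.71 CPM in Control tumor 2. Among the murine genes, Matn2 was at 65.9 CPM in sgTWIST1 tumor 1, Postn at 513 CPM in sgTWIST1 tumor 2 and Sparcl1 at 2165 CPM in Control tumor 1.

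The log2(FC) of 2 members differed between tumors and cells by the interaction term, with 5.42 (SE 1.10) for SRPX and -6.79 (SE 0.71) for THBS2. Both values come from the contrasts that had chosen the genes.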

How the results depend on the processing

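Of 1023 values under alternatives, 956 kept their direction and side of the threshold, 32 changed sign, 13 lost and 11 gained a call, and 11 counts moved by over 1.5 times. Under the alternatives 7 to 8 members were counted as DE in cells and 6 to 7 in tumors, a count that the choice of the genes had fixed. Most changes of sign were of values near 0 that were never called. For Control tumors against cells, without a filter on low counts SPARCL1 was at -0.068, PCOLCE at -0.16 and TNC at -0.062, with filterByExpr at -0.039, -0.13 and -0.033, and without the tumor of lowest human depth in each group SPARCL1 was at -0.17 and TNC at -0.63. With each replicate left out in turn, that comparison called 1 to 2 members and ranged from -0.24 to 0.53 for SPARCL1, -0.022 to 0.23 for PCOLCE, -0.23 to 1.37 for SRPX and -0.63 to 0.59 for TNC. SPARC in sgTWIST1 tumors against cells ranged from -0.31 to 0.18, and the difference of the log2(FC) of MATN2 from -0.52 to 0.081. In the stroma the ranges were -0.050 to 0.31 for Sparc, -0.30 to 0.28 for Fn1, -0.53 to 0.21 for Postn, -0.16 to 0.38 for Pcolce, -0.67 to 0.12 for Matn2 and -0.63 to 0.041 for Thbs1, and without the tumor of lowest human depth in each group Fn1 was at 0.081 and Postn at 0.23. The cause of these changes was not tested.

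Without a filter 1 murine orthologue was called (Sparcl1, 1.43, adjusted p = 0.0215), with 497 murine genes in all, against 0 with the filter. DESeq2 called 54 and leaving out each tumor 0 to 39 murine genes. In cells 2451 genes were DE without a filter and 2396 with filterByExpr, against 1583, and with all gene types 1936 genes differed between Control tumors and cells and 2074 between sgTWIST1 tumors and cells, against 1285 and 1379. DESeq2 did not call TNC in sgTWIST1 tumors against cells (1.72), MATN2 was under the cutoff there with all gene types (0.97), and the difference of the log2(FC) of SPARCL1 was -2.04 with DESeq2 and -2.70 without the tumor of lowest human depth in each group. With the clone number as a replicate block 7 members were DE in cells, and with the xenograft number 6 in tumors and 0 orthologues (5 murine genes). Same-numbered clones correlated at 0.32, 0.28 and 0.0999, beside a mean of -0.12 for other numbers, and tumors at -0.19 to 0.28, beside -0.0031. Depth limits POSTN, the Control values of SRPX, and the murine values of Control tumor 2.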
